A study of Homo sapiens with 6 samples.

Results

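Of the genes of the interferon response, 44 were followed here in a miR-CLIP experiment with miR-146a, out of 18234 genes in the deposited table. They were chosen by gene symbol, as interferon receptors, the kinases and transcription factors behind them, and genes that interferon induces. All 44 had a row, and their symbols all begin with letters from A to L, so they are not the whole pathway. IMR90, a normal human lung fibroblast line, carried a retrovirus for the oncogenic RAS form RASV12 and was transfected with a miR-146a mimic bearing psoralen and biotin. In miR-CLIP, AGO2, the protein that carries microRNAs, is immunoprecipitated, and RNA crosslinked to the mimic is then purified on streptavidin. The labels give 3 miR-CLIP and 3 Input libraries, and both groups carry RASV12 and the modified mimic, so neither is a control without the microRNA or without RAS. Puromycin at 1.5 ug/ml was applied for 3 days, cells were seeded 10 days after infection, and the mimic followed 24 hours after seeding. The sources used here do not say how Input RNA was taken.

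Type I interferon binds the receptor pair IFNAR1 and IFNAR2, and interferon gamma binds IFNGR1 and IFNGR2. The Janus kinases attached to these receptors phosphorylate STAT proteins, which act with IRF9 at a DNA element named ISRE to switch on a large set of genes. Their products sense viral RNA, block its translation, or restrict entry of virus into the cell. miR-146a is induced by inflammatory signalling and is known for restraining innate immune signalling through its adaptor proteins. Fibroblasts driven into senescence by oncogenic RAS are known for an inflammatory secretory program that can include interferon-induced genes.

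The mimic's sequence and the matches to it in these genes are shown first, because pairing of bases 2 to 8 (the seed) is the usual basis of a microRNA's choice of target. The mature sequence is RefSeq's for the natural miR-146a-5p (GRCh38.p14, chr5:160485372-160485393, plus strand), with its seed in capitals. The placing of psoralen and biotin in the mimic is not shown.

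miR-146a-5p: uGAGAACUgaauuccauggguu

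Each of 3 kinds of match was searched in the longest 3′ UTR of each gene in GENCODE release 29: AGTTCTCA (8mer), AGTTCTC (7mer-m8) and GTTCTCA (7mer-A1). At least 1 was found in 11 of the 44 genes, or 25.0%, against 20.5% of 6338 tested protein-coding genes. The median 3′ UTR was 742 bases in the interferon genes and 1293 bases in the coding genes. A 7mer-m8 or 8mer match was found in 6 of 44 (13.6%), against 12.2% of the coding genes. The 30-base windows below are on the strand of the gene, with the matched bases in capitals. They end with the match, or 1 base after it for a 7mer-m8.

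EIF2AK2 (8mer, chr2:37104508-37104537, minus strand): gactagcctgggcaacacagtgAGTTCTCA
EPSTI1 (8mer, chr13:42887634-42887663, minus strand): ttcacttctgtgaccctgaaccAGTTCTCA
IFIT3 (8mer, chr10:89340667-89340696, plus strand): tcaggcccacatgatgctgattAGTTCTCA
GBP3 (7mer-m8, chr1:89007329-89007358, minus strand): cttcctagggaagacagtgtacAGTTCTCc
IFIT1 (7mer-m8, chr10:89404950-89404979, plus strand): accccatctcaaaaaaaaaaaaAGTTCTCt
LGALS3BP (7mer-m8, chr17:78971386-78971415, minus strand): gcttccactagggtccaccaggAGTTCTCc
ADAR (7mer-A1, chr1:154582789-154582818, minus strand): catccagggcagagaggtctgtgGTTCTCA
IFNAR1 (7mer-A1, chr21:33357134-33357163, plus strand): attctggtggcctctagggcagtGTTCTCA

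DDX58, IFI35 and IFI6 also held a 7mer-A1 match. These windows are in the coordinates of GRCh38, and each match is a string of letters and not a measured binding site.

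Values below are normalised read counts, that is, the authors' reads after division by a size factor of each library. The rows of the table added up to 9378463, 8088221 and 6847837 reads in miR-CLIP (libraries A, B, C), against 12771968, 9379996 and 9295325 reads in Input (A, B, C). The table's letters could not be matched to the labels' replicate numbers. The labels do not say whether each library had its own culture, so p-values measure only the spread between these samples, which may be technical. Of 15 fibroblast markers fixed for the check, 10 were in the table. Their summed values were 163406 to 211562 in miR-CLIP and 142492 to 217625 in Input. LUM, PDGFRA, PDGFRB, THY1 and VIM had no row, which is no measure of their expression. The summed epithelial markers reached 536 to 2254 in miR-CLIP and 1016 to 1362 in Input (7 of 8 in the table). The endothelial ones reached 246 to 469 in miR-CLIP and 323 to 380 in Input (5 of 8), and the leukocyte ones 10.3 to 41.3 in miR-CLIP and 8.67 to 25.1 in Input (6 of 10, with LILRA4 at 0 in all 6 libraries). In bulk RNA of this kind, fewer cells that express a gene and less of its RNA per cell cannot be told apart.

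In Input these genes ran from abundant to undetected. Mean Input values were at least 1000 for 9 genes, between 100 and 1000 for 16, between 10 and 100 for 10 and under 10 for 9. Levels per kb are over the longest annotated coding transcript, which need not be the form these cells express. The order of genes depends on that choice. Highest per kb was IFITM3, which blocks viral entry at membranes, at 1620.0 ± 39.7 normalised read counts per kb (SD, n = 3). ADAR, the enzyme that edits adenosine to inosine in double-stranded RNA, followed at 1471 ± 47.6, and JAK1, a kinase shared by both interferon receptors, at 1278 ± 145. The Input libraries of ADAR and JAK1 overlapped per kb, and those of IFITM3 lay above both. LGALS3BP, a secreted glycoprotein, stood at 694 ± 109 per kb and IFI16, a sensor of DNA, at 598 ± 194, and these 2 did not differ beyond their spread. IFITM2 (519 ± 115) and the receptor chain IFNGR2 (488 ± 44.2) lay within the spread of IFI16.

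Of the genes that interferon induces, some were low in the same Input libraries and others were not. IFITM3 was the highest, as given above, and GBP1, IFIT3 and IFI6 had 122 ± 28.7, 67.5 ± 18.5 and 63.7 ± 16.6 per kb. IFIT1, which binds foreign RNA ends, had 3.52 ± 1.11 per kb, and IFI44 had 5.91 ± 1.98. HERC5, the ligase that attaches ISG15 to proteins, had 0.976 ± 0.435 and IRF9, the DNA-binding partner of the STAT proteins, 1.13 ± 0.787. IFI44L was at 0 in all 3 Input libraries, and IFI27, IFI30 and BST2 had means of 1.40, 1.39 and 0.554 normalised read counts there. A count of 0 allows up to 3 reads, which is 3.10, 2.98 and 3.75 normalised read counts for miR-CLIP (A, B, C) and 1.84, 2.49 and 2.60 for Input (A, B, C), for counting error only. ISG15, a ubiquitin-like protein, stood apart from HERC5 at 279.8 ± 9.72 per kb, and HERC6 had 27.5 ± 4.06. Of the genes that encode interferons, IFNA1, IFNE and IFNK were analysed here, and their highest value was 24.8, for IFNE in miR-CLIP B.

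**Figure D1:**
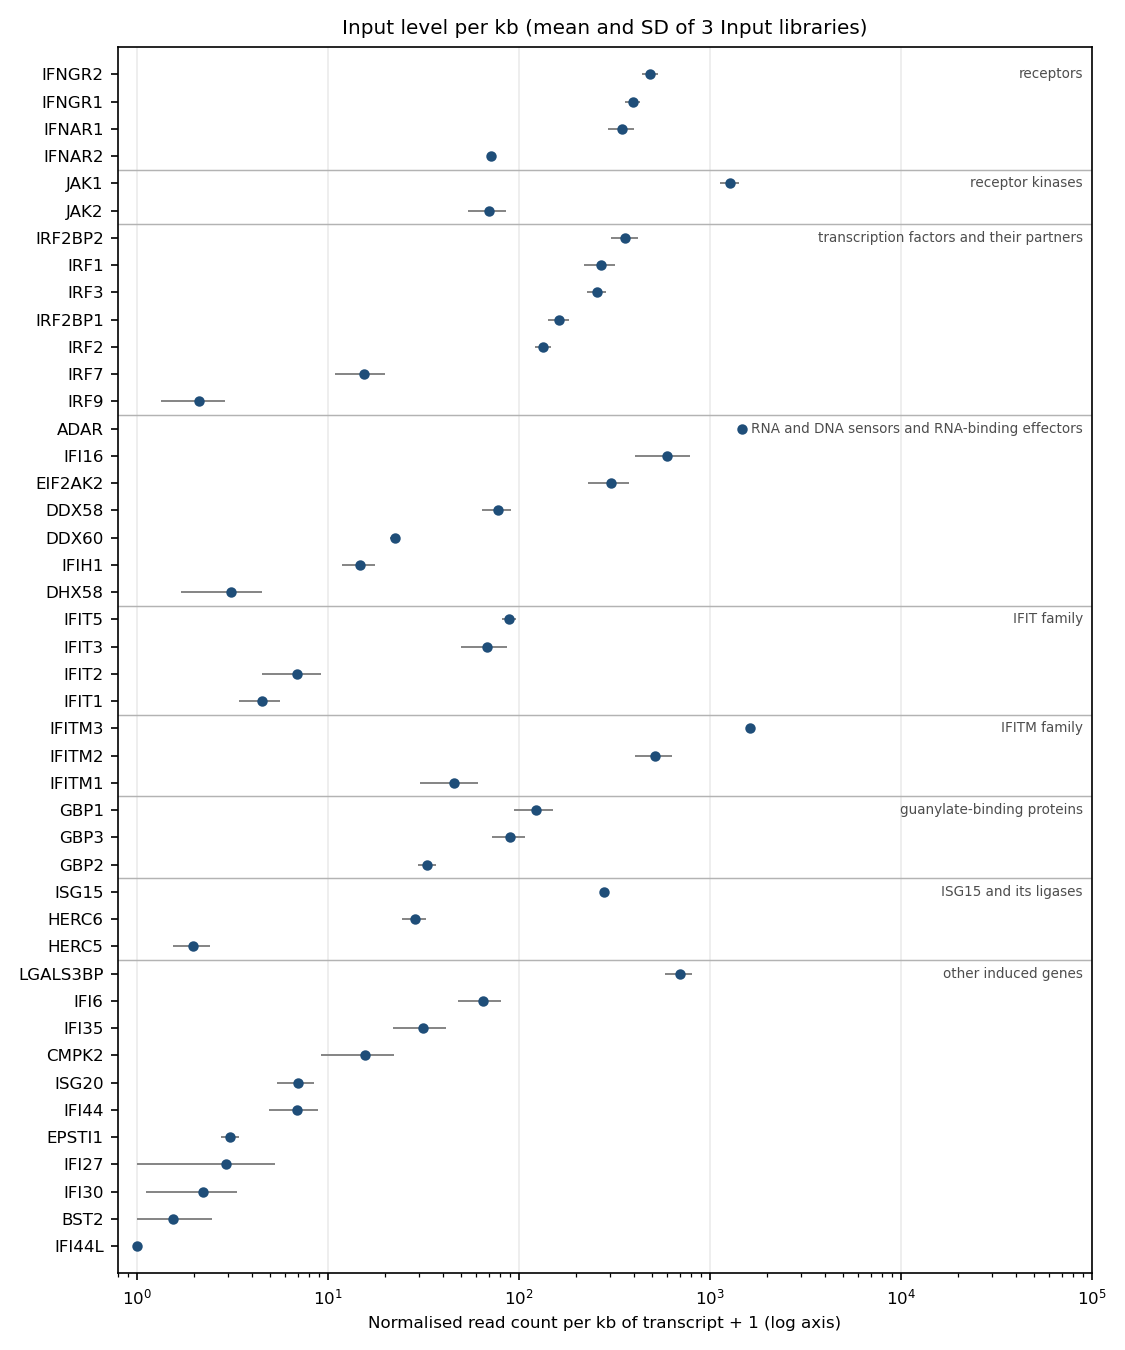
Mean Input level of the 44 genes in normalised read counts per kb of the longest coding transcript, plus 1, on a log axis, with the SD over 3 Input libraries as bars. IFITM3, ADAR and JAK1 are the highest, at 1620.0, 1471 and 1278 per kb, and IFI44L is at 0.

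Some levels rest on sequence that other annotated genes share. All 50-base stretches of the IRF9 transcript (100%) also occur in AL136295.5, 87.5% of those of IFI30 in AC007192.1, and 84.5% of those of IFNAR2 in AP000295.1 or IL10RB-DT. AL136295.5, AC007192.1 and AP000295.1 each overlap the interferon gene on the same strand. IFITM1 shared 42.3% with IFITM2 and IFITM3, IFITM3 20.3% with its 2 relatives, and IFITM2 15.8%. The low values of IRF9 and IFI30 and the level of IFNAR2 are uncertain for this reason, as is the split among the IFITM genes. IRF3 shared 19.3% with BCL2L12, IRF1 15.2% with C5orf56 and AC116366.3, and GBP1 13.3% with GBP1P1 and GBP3.

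The promoters carried a letter pattern of the pathway. A core of the ISRE, spelled as GAAA, then any 2 bases, then GAAA, was searched on both strands from 250 bases before to 50 bases after each RefSeq gene start, and overlapping matches were all counted. It occurred in 20 of the 36 interferon genes that matched a RefSeq entry (55.6%), against 4.38% of 27305 genes with such a window. IFNAR2, IRF2, IRF3, IRF7, DHX58, IFIT2, IFITM2 and GBP2 had no entry in the table used. Every one of the 9 matched receptors, kinases, factors and factor partners lacked the pattern, while IFIT5, IFIH1, HERC5 and IFI6 each held 3 matches. DDX58, ADAR, IFI16, HERC6, IFI30, IFI35 and CMPK2 lacked it too. The Input level per kb had a median of 33.1 over the 20 genes with a match and 215 over the 16 without. This is a description of letters, and the genes were chosen partly as interferon-induced.

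Setting miR-CLIP against Input asks which RNAs were recovered with the microRNA, and here 0 of the 40 interferon genes that could be tested passed the threshold. The other 4 (IFI27, IFI30, IFI44L and BST2) had too few values of at least 1. The background was the same, since limma called 0 of 8506 tested genes higher (0.0%) and 0 lower (0.0%) at an adjusted p of 0.05, with a smallest adjusted p of 0.611. At an unadjusted limma p under 0.05, 0 interferon genes were higher and 3 were lower (EIF2AK2, GBP3 and IFIT5), against 2.4% of all tested genes higher and 4.04% lower. On recovered reads edgeR called 0 genes and DESeq2 called 2 of 8506, both higher (0.0235%), neither of them an interferon gene. At an unadjusted p under 0.05, edgeR had 1 interferon gene higher and 3 lower, against 4.21% and 2.37% of all genes, and DESeq2 also had 1 higher and 3 lower, against 5.43% and 2.5%. The log2 fold change, miR-CLIP over Input on the log2(value + 1) scale, was positive for 12 and negative for 28 of the 40, with a median of -0.37, against -0.13 over all tested genes.

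In these genes miR-CLIP B stood closer to the Input libraries than to miR-CLIP A and C. Across the 40 genes, library B correlated with the Input libraries at Pearson's r of 0.982, 0.979 and 0.962 on log2 values, and with miR-CLIP A and C at 0.878 and 0.915. miR-CLIP A and C correlated at 0.949 and the Input pairs at 0.981 to 0.991. These correlations run across genes, which are not independent replicates, and share each gene's level. miR-CLIP A and C lay on the same side of the mean Input value for 33 of 40 genes. Library B was on the other side for 24 of those 33 and on the same side for 9. The coefficient of variation had a median of 44.7% in miR-CLIP and 15.96% in Input over the 32 genes with a mean of at least 20, and was larger in miR-CLIP for 27 of them. Log2 fold changes that passed without miR-CLIP B are given with and without it. In that fit limma called 1069 of 8506 genes higher (12.6%) and 1373 lower (16.1%), and of the 40 interferon genes 4 higher and 11 lower. Library B was singled out after its values were seen, and leaving it out narrows the spread within miR-CLIP.

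**Figure D2:**
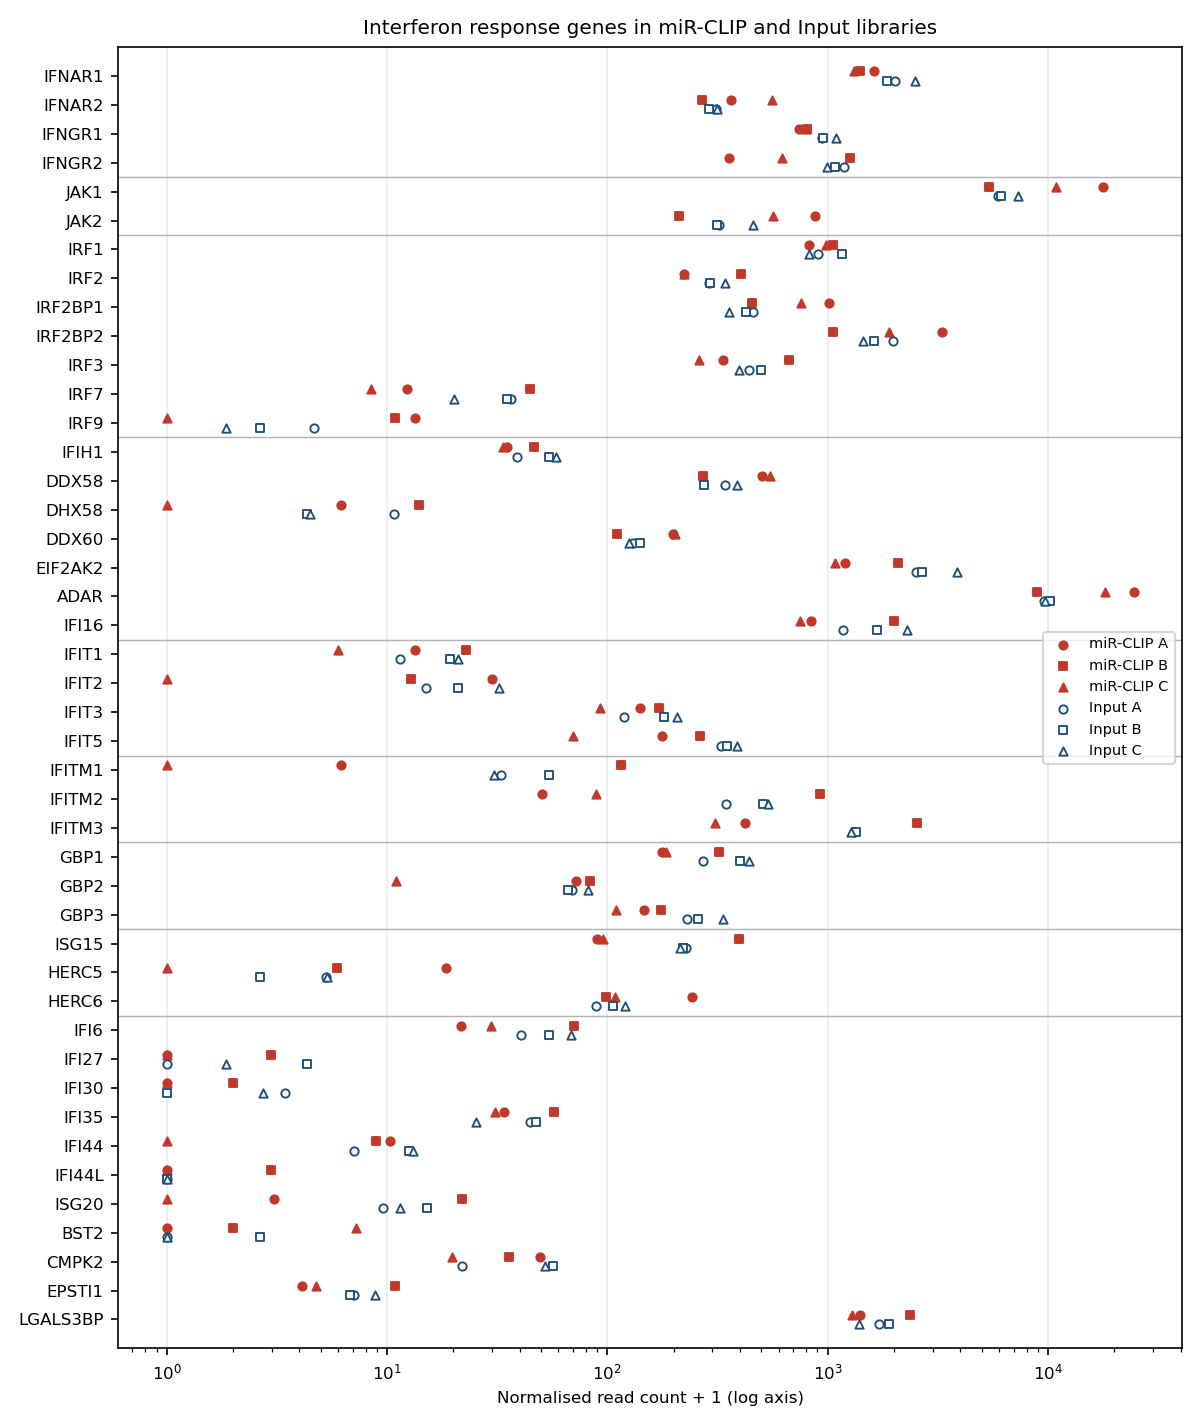
Normalised read count plus 1, on a log axis, of each of the 44 genes in the 3 miR-CLIP libraries (filled red) and the 3 Input libraries (open blue), grouped by role. The filled points spread more widely than the open ones, as for IFITM2, with 49.6, 923 and 87.5 in miR-CLIP against 345, 508 and 535 in Input.

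Among the receptors, IFNAR1 and IFNGR1 were lower in each miR-CLIP library than in each Input library. IFNAR1 (chr21:33324477-33359862, plus strand) had 1627, 1397 and 1324 in miR-CLIP (A, B, C, as in all lists below), against 2021, 1856 and 2494 in Input. The groups did not overlap, and the log2 fold change was -0.55 ± 0.25 (SE), with a limma adjusted p of 0.611. IFNGR1 (chr6:137197484-137219449, minus strand) had 741, 807 and 800.2 in miR-CLIP and 940.0, 948 and 1096 in Input, also without overlap, and a log2 fold change of -0.34 ± 0.24. They are 2 of 5 interferon genes whose groups did not overlap, all 5 lower in miR-CLIP, with EIF2AK2, IFIT5 and GBP3. Over all tested genes, 7.34% were lower without overlap and 5.64% were higher.

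Their partner chains overlapped between the groups. IFNAR2 had 364, 268 and 556 in miR-CLIP and 309.9, 288 and 315 in Input, a log2 fold change of 0.32 ± 0.33. IFNGR2 had 356, 1260.0 and 620.1 in miR-CLIP and 1185, 1076 and 989 in Input, so that library B alone was above Input. Its log2 fold change was -0.73 ± 0.43 with all libraries and -1.20 ± 0.25 without miR-CLIP B, where it passed (limma adjusted p = 0.0110).

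The receptor kinases were high in miR-CLIP A and C. JAK1 (chr1:64833229-64966504, minus strand) had 17856, 5414 and 10900.0 in miR-CLIP, against 5936, 6129 and 7290.3 in Input. JAK2, which serves the interferon gamma receptor, had 877, 211 and 563 in miR-CLIP, against 320.3, 315 and 459.7 in Input. For both, library B was below every Input library while A and C were above every one. With all libraries the log2 fold changes were 0.66 ± 0.42 and 0.39 ± 0.50, and neither passed. Without miR-CLIP B they were 1.12 ± 0.24 for JAK1 (limma adjusted p = 0.0127) and 0.96 ± 0.27 for JAK2 (0.0313).

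The transcription factors all overlapped between the groups. IRF1, which drives genes of the interferon gamma response, had 819, 1055 and 981 in miR-CLIP and 900.2, 1157 and 822 in Input, a log2 fold change of -0.0045 ± 0.26 with a 95% interval of -0.60 to 0.59. IRF2, which competes with IRF1 at the same DNA element, stood at -0.17 ± 0.34, and IRF3, the factor that RNA sensors activate, at -0.19 ± 0.38. IRF7, which amplifies interferon production, averaged 20.8 ± 19.9 in miR-CLIP and 29.6 ± 9.11 in Input (SD, n = 3 each), with a log2 fold change of -0.82 ± 0.72. IRF9 had 12.4, 9.93 and 0 in miR-CLIP and 3.67, 1.66 and 0.867 in Input.

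The 2 partners that bind IRF2 as co-repressors had positive log2 fold changes. IRF2BP1 (chr19:45883607-45886170, minus strand) had 1015, 452 and 753 in miR-CLIP, against 459, 425 and 357 in Input, so that only miR-CLIP B fell within the Input range. The log2 fold change of IRF2BP1 was 0.77 ± 0.34 with all libraries (limma adjusted p = 0.611) and 1.08 ± 0.21 without miR-CLIP B, where it passed (0.00899). IRF2BP2 had 3309, 1057 and 1890.4 in miR-CLIP and 1979, 1622 and 1443 in Input, with miR-CLIP A above and miR-CLIP B below every Input library. Its log2 fold change was 0.17 ± 0.40, turned to -0.24 without miR-CLIP A, and did not pass without miR-CLIP B either, at 0.59 ± 0.26.

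The RNA sensors and RNA-binding effectors had log2 fold changes of both signs. EIF2AK2 (chr2:37099210-37157065, minus strand), the kinase PKR that halts translation when it binds double-stranded RNA, had 1201, 2080.2 and 1081 in miR-CLIP, against 2531, 2694 and 3873 in Input. All 3 miR-CLIP libraries were below all 3 Input libraries. Its log2 fold change of -1.10 ± 0.33 had the smallest unadjusted limma p of the 40 genes, 0.00914, and an adjusted p of 0.611. EIF2AK2 passed without miR-CLIP B, at -1.38 ± 0.22 (limma adjusted p = 0.00362). It carries the 8mer shown first among the windows.

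ADAR (chr1:154582062-154627999, minus strand) was the highest of the 44 by value and lay on the other side. It had 24506, 8905 and 18110.4 in miR-CLIP, against 9611, 10215 and 9733 in Input. Libraries A and C were above all Input libraries and library B was below them. The log2 fold change was 0.68 ± 0.39 with all libraries and 1.10 ± 0.20 without miR-CLIP B, where it passed (limma adjusted p = 0.00714). Its 3′ UTR holds 1 of the 7mer-A1 matches.

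The cytosolic RNA helicases overlapped between the groups. DDX58, known as RIG-I, had 503, 271 and 548 in miR-CLIP and 343, 273 and 388 in Input, with a log2 fold change of 0.35 ± 0.35. IFIH1, known as MDA5, stood at -0.39 ± 0.45, and DDX60, a related helicase, at 0.32 ± 0.37. DHX58 had at most 12.9 in any library. IFI16 had 840.5, 2007 and 745 in miR-CLIP and 1176, 1677 and 2289 in Input, a log2 fold change of -0.61 ± 0.43 that passed only without miR-CLIP B, at -1.06 ± 0.27 (limma adjusted p = 0.0230).

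All 4 IFIT genes, which lie in 1 cluster on chromosome 10, had negative log2 fold changes. IFIT5 (chr10:89414586-89421001, plus strand) had 177, 263 and 68.8 in miR-CLIP, against 326, 350.1 and 389 in Input, with no overlap. Its log2 fold change was -1.26 ± 0.48, with an unadjusted limma p of 0.0290, and it passed without miR-CLIP B at -1.67 ± 0.38 (adjusted p = 0.0153). IFIT3 had 139, 171 and 91.3 in miR-CLIP and 118, 180.5 and 207 in Input, a log2 fold change of -0.34 ± 0.39, and carries an 8mer. IFIT2 had 28.9, 11.9 and 0 in miR-CLIP and 14.1, 19.96 and 31.2 in Input, and IFIT1 had at most 21.8 in any library. These low values overlapped between the groups.

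The IFITM genes, small membrane proteins from 1 cluster on chromosome 11, differed widely between miR-CLIP libraries. IFITM3 (chr11:319669-327537, minus strand) had 420.2, 2538 and 306 in miR-CLIP, against 1313, 1339 and 1275 in Input. IFITM2 (chr11:307631-315272, plus strand) had 49.6, 923 and 87.5 in miR-CLIP, against 345, 508 and 535 in Input. IFITM1 had 5.16, 114 and 0 in miR-CLIP, against 31.8, 53.2 and 29.5 in Input. For each gene library B was above every Input library and libraries A and C were below every one. With all libraries the log2 fold changes were -0.92 ± 0.69, -1.50 ± 0.93 and -2.09 ± 1.46 for IFITM3, IFITM2 and IFITM1. For IFITM1 edgeR and DESeq2 gave the other sign, 0.031 and 0.047, and its group means were close, at 39.8 in miR-CLIP and 38.2 in Input. Without miR-CLIP B all 3 passed, at -1.86 ± 0.19, -2.77 ± 0.33 and -3.93 ± 0.84 (limma adjusted p of 0.00106, 0.00150 and 0.0119).

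Among the guanylate-binding proteins, GTPases that attack the compartments of intracellular pathogens, GBP3 was lower in each miR-CLIP library than in each Input library. GBP3 (chr1:89006666-89022894, minus strand) had 146, 174 and 109 in miR-CLIP, against 229.6, 256 and 334 in Input. This gave a log2 fold change of -0.94 ± 0.34 with an unadjusted limma p of 0.0219, and GBP3 passed without miR-CLIP B at -1.09 ± 0.28 (adjusted p = 0.0221). GBP1 had 177, 319.7 and 184 in miR-CLIP and 271, 400.0 and 437 in Input. GBP1 had a log2 fold change of -0.73 ± 0.36 with all libraries and -1.003 ± 0.26 without miR-CLIP B, where it passed (limma adjusted p = 0.0254). GBP2 had 71.2, 82.4 and 10.0 in miR-CLIP and 68.0, 65.7 and 80.7 in Input, so that library C alone was low, and a log2 fold change of -0.83 ± 0.76.

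ISG15 and the remaining induced genes complete the list. ISG15 (chr1:1001138-1014541, plus strand) had 88.8, 397 and 95.02 in miR-CLIP, against 228, 220.4 and 213 in Input, with library B above Input and the other 2 libraries below it. Its log2 fold change was -0.55 ± 0.56 with all libraries and passed without miR-CLIP B, at -1.25 ± 0.25 (limma adjusted p = 0.00927). HERC6 had 241, 97.3 and 108 in miR-CLIP and 88.2, 105 and 119 in Input, a log2 fold change of 0.40 ± 0.44. LGALS3BP averaged 1686 ± 589 in miR-CLIP and 1670.1 ± 262 in Input (SD, n = 3 each), and its log2 fold change of -0.03 ± 0.31 had a 95% interval of -0.72 to 0.67. IFI6, IFI35 and CMPK2, a mitochondrial nucleotide kinase, had log2 fold changes of -0.58 ± 0.56, 0.06 ± 0.51 and -0.29 ± 0.59. ISG20, an exonuclease that degrades RNA, had 2.07, 20.9 and 0 in miR-CLIP and 8.57, 14.1 and 10.4 in Input, and passed without miR-CLIP B (limma adjusted p = 0.0243). EPSTI1 had at most 9.93 and IFI44 at most 12.1 in any library.

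**Figure D3:**
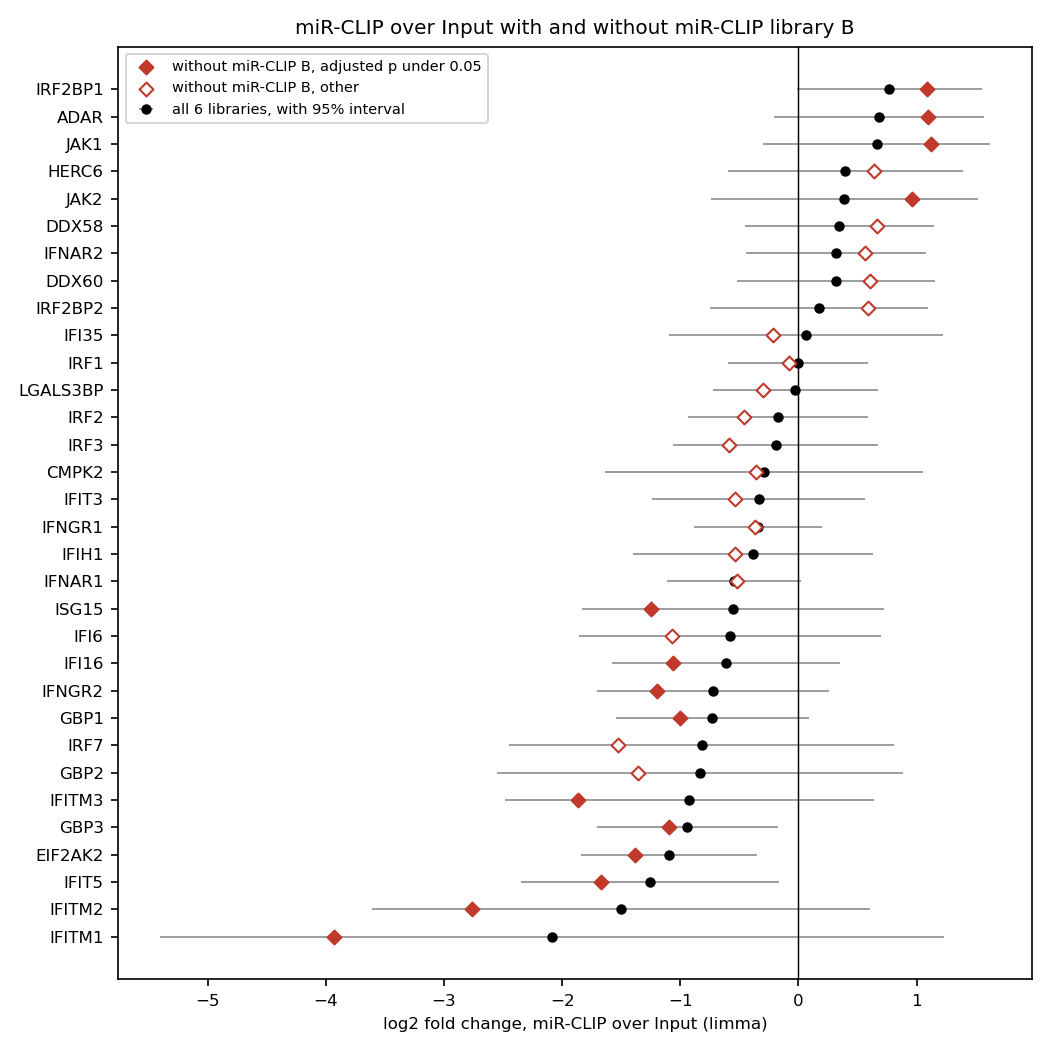
Log2 fold change, miR-CLIP over Input, from limma for the 32 tested genes with a mean of at least 20, with all 6 libraries (black points, bars are 95% intervals) and without miR-CLIP B (red diamonds, filled where the adjusted p is under 0.05). No gene passed with all libraries, and most diamonds lie farther from 0 than the black points.

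The differences moved with transcript length. Among the 40 genes, Spearman's rho between length and the difference from the mean Input value was 0.481 for miR-CLIP A, -0.729 for B and 0.481 for C. Over 6344 tested coding genes it was 0.449, -0.524 and 0.363 in the same libraries, with the same signs. Input A, B and C also varied with length, at -0.0745, -0.408 and 0.312 over the 40 genes and 0.0312, -0.189 and 0.094 over the coding genes. The 5 tested interferon genes under 1000 bases are IFITM1, IFITM2, IFITM3, ISG15 and IFI6. Their median difference from Input was -1.64 for miR-CLIP A, 0.96 for B and -2.09 for C, and their median log2 fold change of -0.92 was the same, to 2 decimals, as that of all 256 tested coding genes of this length. For the 6 over 5000 bases the median log2 fold change was 0.35, and for all 1775 such coding genes 0.17, while the median differences of the 6 were 0.94, -0.39 and 0.63 in A, B and C. EIF2AK2, the longest at 10042 bases, was low in all 3 miR-CLIP libraries.

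With a correction for length and without miR-CLIP B, a combination chosen after seeing the data, limma called 953 of 8475 genes higher (11.2%) and 840 lower (9.91%). Of the interferon genes 3 were higher, JAK1, IRF2BP1 and ADAR, at log2 fold changes of 0.94, 1.42 and 0.74. Lower were 7, of which EIF2AK2 and IFIT5 stood at -1.91 and -1.69, the IFITM genes at -2.98, -1.83 and -0.89 for IFITM1, IFITM2 and IFITM3, GBP3 at -0.91 and IFNAR1 at -0.82. JAK2, IFNGR2, IFI16, GBP1, ISG15 and ISG20, which passed without miR-CLIP B alone, did not pass with the correction. The log2 fold changes were then 0.75 for JAK2, -0.75 for IFNGR2, -0.82 for IFI16, -0.81 for GBP1 and -0.27 for ISG15. That of ISG20 is not printed, since its mean over the libraries was under 20. The part of transcript length in the differences was not tested beyond this.

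**Figure D4:**
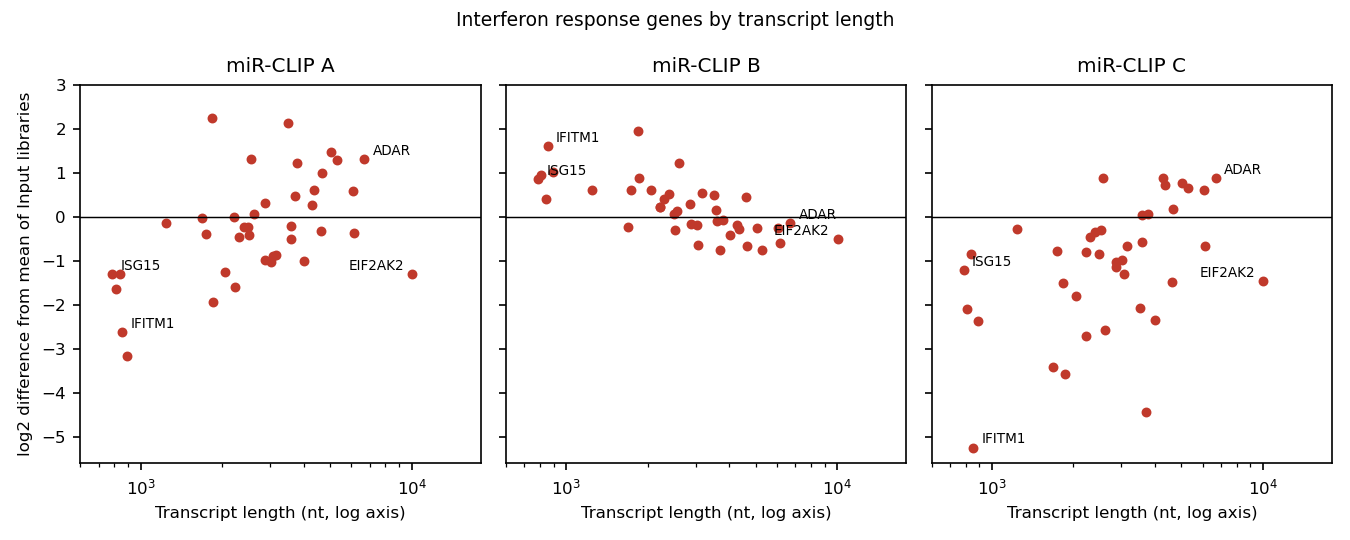
Difference of each of the 40 tested genes from the mean Input log2 value against the length of its longest coding transcript (nt, log axis), with 1 panel for each miR-CLIP library. Short transcripts such as IFITM1 and ISG15 lie below 0 in A and C and above 0 in B.

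Most genes with a match to the seed had negative log2 fold changes, as did most without one. The 11 tested genes with any of the 3 kinds of match had 3 positive and 8 negative log2 fold changes with a median of -0.34, and the 29 without one had 9 positive and 20 negative with a median of -0.39. Of the 6 with a 7mer-m8 or 8mer match (EIF2AK2, EPSTI1, IFIT3, GBP3, IFIT1 and LGALS3BP), 0 were positive and the median was -0.39, against -0.37 for the 34 without one. No test was made of these medians.

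The other genes of the pathway also had log2 fold changes of both signs. A list of 134 further ligands, sensors, adaptors, STAT proteins, antigen-presentation genes and effectors had 73 genes in the table. Those 73 held no STAT protein and no adaptor, and a gene without a row was not examined here. Apart from OAS1, the symbols of the 73 all begin with letters from A to L. A missing row is therefore no measure of a gene's expression in these cells. Of the 73, 52 were tested, 22 with positive and 30 with negative log2 fold changes and a median of -0.32. With all libraries limma called 0, and 1 had an unadjusted p under 0.05. Without overlap 2 were higher and 4 lower, against 5.64% and 7.34% of all tested genes. In the fit without miR-CLIP B 8 were called higher and 8 lower, against 12.6% and 16.1% of all tested genes. IKBKE, a kinase that activates IRF3, had 723, 397 and 565 in miR-CLIP, against 283, 358 and 287 in Input, a log2 fold change of 0.82 ± 0.31 and the only unadjusted limma p under 0.05 on that list (0.0282). HELZ2, a helicase, and C1S, a protease of complement, followed at 0.76 ± 0.35 and 0.52 ± 0.28. HELZ2 and C1S, like IKBKE, are named as the 3 smallest p among genes with a mean of at least 20 over the 6 libraries. In the other direction the 3 smallest above the same mean belonged to APOBEC3C, a cytidine deaminase, at -0.79 ± 0.43, ERAP1, which trims peptides for antigen presentation, at -0.45 ± 0.26, and CASP4, which senses bacterial lipopolysaccharide, at -0.72 ± 0.47. Of these 6, ERAP1 did not pass without miR-CLIP B.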

How the data were processed

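Per the file headers, the deposited table gives 1 value per gene for each of 3 miR-CLIP and 3 Input libraries, with the authors' fold change (a ratio), p-value and adjusted p-value. The deposited signal values are normalised read counts: within a tolerance of 1e-06, 100% were whole multiples of the value of 1 read, which was 1.03, 0.993 and 1.25 for miR-CLIP (A, B, C) and 0.612, 0.832 and 0.867 for Input (A, B, C). GRCh38, STAR 2.5.1b, Trimmomatic 0.35 and DESeq2 1.22.2 appear in the submitters' processing notes. The counting program, strand setting and annotation are not given in the sources consulted, so reads of genes that overlap on opposite strands may not be told apart.

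The 8506 genes that reached 1 in 3 or more libraries were tested two-sided with limma-trend 3.58.1 (R 4.3.3) on log2(value + 1), Benjamini-Hochberg adjusted over all of them, threshold 0.05. The pseudocount of 1 understates the change of low genes. edgeR 4.0.16 and DESeq2 1.42.0 were run on recovered reads, and other pseudocounts, filters and size factors, a loess correction for transcript length, and leaving out each library were tried. Identifiers were matched to GENCODE release 29 (18143 of 18234), where the version differed for 6 interferon genes (ADAR, EIF2AK2, IFIH1, IFNGR1, IRF7 and ISG15); lengths are of the longest coding transcript. Fold changes are printed for tested members with a mean of at least 20 over 6 libraries; of other pathway genes above the same mean, the 3 with the smallest p in each direction are named. Members, lists and markers were chosen with earlier results of these data known.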

Additional observations from a re-analysis of the deposited data

How the results depend on the processing

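No interferon gene passed with all 6 libraries under other pseudocounts, filters or size factors, edgeR, DESeq2 or the length correction. DESeq2 called 2 genes of the whole table higher. Leaving out 1 library moved the genes called higher over the range 0 to 1069 and lower 0 to 1373. For the interferon genes the ranges were 0 to 4 and 0 to 11, and for the other pathway genes 0 to 8 and 0 to 8. Leaving out miR-CLIP B gave all calls above 0; with the length correction as well, 953 and 840 genes, 3 and 7 interferon genes and 6 and 5 other pathway genes were called higher and lower.

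Some signs turned, also for genes with larger fold changes such as IFITM1, GBP2 and ISG15. Under the length correction IRF1 stood at 0.045, IRF2 at 0.042, IRF3 at 0.13, ISG15 at 0.0062 and LGALS3BP at 0.17. Without miR-CLIP B as well, IRF3 stood at 0.037 and LGALS3BP at 0.085. IFITM1 turned in edgeR (0.031) and DESeq2 (0.047), and LGALS3BP in DESeq2 (0.0036). Leaving out 1 library gave JAK2 -0.058 to 0.96, IRF1 -0.11 to 0.14, IRF2BP2 -0.24 to 0.59, IRF3 -0.59 to 0.098, GBP2 -1.36 to 0.11, HERC6 -0.012 to 0.64, IFI35 -0.23 to 0.23, CMPK2 -0.73 to 0.069 and LGALS3BP -0.30 to 0.14. The cause was not tested. The table's letters match no replicate number in the labels. Libraries of the same letter had deviations from their group means that correlated at 0.140, 0.107 and 0.0857 for A, B and C over 8506 genes, and those of different letters at -0.0832 to -0.0410, which is a hint and not a stated pairing. With the letter as a replicate block, added after seeing the data, limma called 0 genes higher and 0 lower and 0 interferon genes either way, with a smallest adjusted p of 0.558. At an unadjusted p under 0.05 that fit had 210 genes higher and 499 lower, with 0 and 4 of the interferon genes. Depth limits genes with a few reads, such as IFI27, IFI30, IFI44L and BST2, where no difference was detectable at this depth.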

Other observations

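In the authors' deposited table, 3 of the 44 interferon genes had a p-value under 0.05, against 513 of 18221 genes with a p-value, and the smallest adjusted p was 1.0 for the interferon genes and 0.933 over all genes. The authors' deposited table gives a fold of 0.480 for EIF2AK2, 0.479 for IFIT5, 0.523 for GBP3 and 1.04 for IFITM1. The summed value of the 44 genes was 57927, 34168 and 42038 in miR-CLIP (A, B, C), against 33545, 35312 and 37730 in Input (A, B, C). Genes listed at 0 numbered 4, 0 and 10 of the 44 in miR-CLIP (A, B, C), and 3, 2 and 2 in Input (A, B, C).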
